A study of Mus musculus with 5 samples.

Results

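Hepatocytes from a mouse liver library taken 4 h after food was removed were compared, gene by gene, with hepatocytes from a fed library. A barcode counted as a hepatocyte when it held at least 1000 unique molecular identifiers (UMIs, counts of captured RNA molecules), at least 500 genes, 2 to 30% of UMIs from mitochondrial genes and under 2% from the globin genes Hba and Hbb. The rule kept 12393 of the series' 50000 barcodes, 7826 of 10000 in the fed library and 4567 of 10000 in the 4 h library. The rule used no outcome gene other than the mitochondrial and globin totals.

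Both groups were male wild-type (WT) C57BL/6J mice on Normal Chow (lab diet #5053). All had been trained for 3 days with 16 h of fasting overnight and 8 h of feeding by day, and on the last day all drank water with 20% sucrose beside their chow. The fed group was taken at hour 13, after 4 h of feeding. The 4 h fasted group lost food and sucrose water at hour 13 and was taken at hour 17, so that 4 h of fasting and 4 h of clock time cannot be told apart. Each group was 1 droplet library (10x Genomics 3' chemistry) from isolated hepatocytes, and no label says how many animals went into it. With 1 library a side no test was possible, and every difference below describes these 2 libraries and not the feeding states. The 95% intervals are exact Poisson intervals for levels, exact conditional binomial intervals for ratios and exact Clopper-Pearson intervals for shares of cells, and they cover counting error only.

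After a meal, insulin drives the liver to store sugar as glycogen and to build fatty acids and cholesterol, largely through the transcription factors SREBP-1c, ChREBP and SREBP-2. When food is withdrawn, insulin falls, glucagon and glucocorticoids gain influence, FoxO factors are freed from insulin's block, and the hepatocyte turns to making glucose and later to burning fat. The same cells also follow a daily clock and make most plasma proteins, which burdens the endoplasmic reticulum (ER).

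The fed library held 47071146 UMIs and the 4 h library 68330252, of which 37789268 and 45532684 were non-mitochondrial UMIs of hepatocytes. The hepatocytes differed in depth, with a median of 5408 UMIs and 1804 genes in the fed library and 12097 UMIs and 2696 genes at 4 h. Their median mitochondrial share was 11.9% and 19.1%. Barcodes under 2% mitochondrial UMIs, which the rule left out, were 21.7% of the fed and 53.5% of the 4 h library. The 7 hepatocyte markers, Alb among them, summed to 103713 counts per 1000000 non-mitochondrial UMIs (CPM) in the fed and 84745 CPM at 4 h. The 7 endothelial markers summed to 77.4 and 11.2 CPM, the 8 Kupffer cell markers to 40.9 and 2.90 CPM and the 6 stellate markers to 26.6 and 1.38 CPM, with every one of these 21 genes lower at 4 h and none at 0. Cholangiocyte markers summed to 78.1 and 48.3 CPM, and T cell, B cell and neutrophil markers to under 3 CPM in both. The libraries shared 26 barcode sequences, 10 of them among hepatocytes.

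Among 2948 genes with at least 50 CPM in either library, 169 were at least 2-fold higher at 4 h (5.73% of the genes compared) and 176 were at least 2-fold lower (5.97%), and these are the genes called higher or lower throughout. Genes under 50 CPM in both libraries are named as below the minimum and were not called. Genes were grouped by function in 30 lists, and members above the minimum are the measured ones. A gene low in one library passes only through the other, and this was so for 58 of the 169 higher genes (fed level under 50 CPM) and 96 of the 176 lower genes (4 h level under 50 CPM). Counts and medians of measured members are therefore descriptions, and for lists where it differs most the median over all listed members with a value is given beside them. Ribosomal protein genes made up 62 of the 169. The median log2 ratio of 4 h to fed was -0.027, with 80% of genes between -0.79 and 0.72, so most levels lay close to each other in the 2 libraries. The median half-width of the log2 interval was 0.065, and for 300 of the 345 called genes the interval lay wholly beyond 2-fold. The split between higher and lower calls moved with the scaling, from 169 and 176 to 232 and 121 with TMM scaling and to 248 and 112 with median-of-ratios scaling. It was 122 and 219 with all UMIs in the denominator, 158 and 234 with genes over 1% of UMIs left out of it and 198 and 150 with ribosomal genes left out. TMM and median-of-ratios scaling shifted the median gene by 0.16 and 0.18 on the log2 scale, so the ratios below are best read against that.

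**Figure D1:**
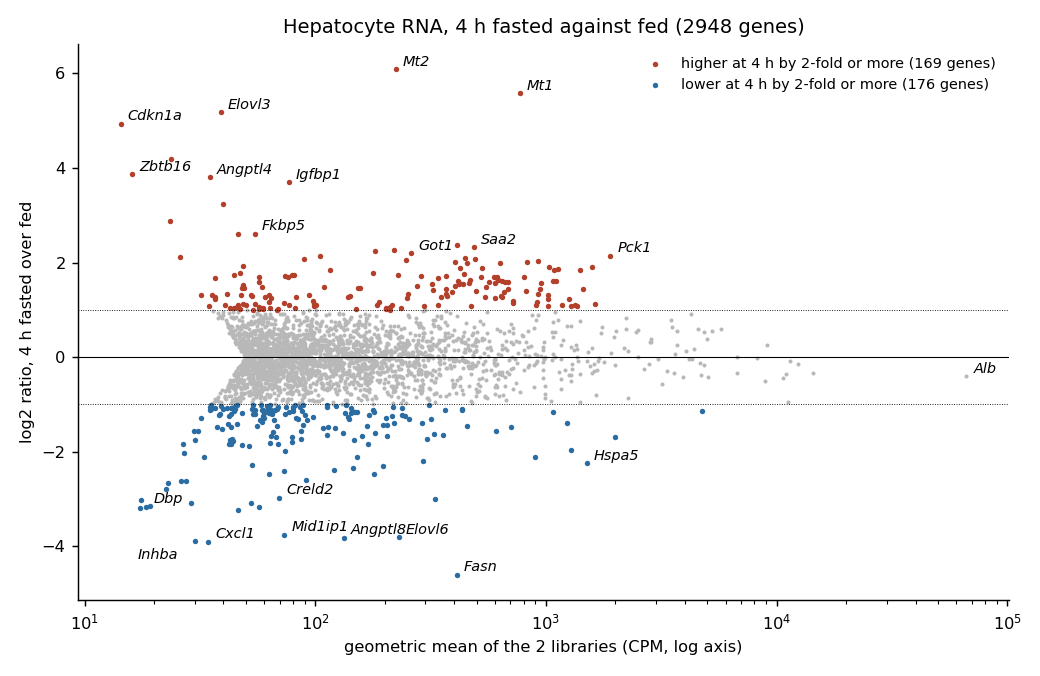
Each point is 1 of 2948 genes, with the geometric mean of its 2 levels on the x axis (CPM, log axis) and the log2 ratio of 4 h to fed on the y axis. Red points are the 169 genes at least 2-fold higher, blue points the 176 at least 2-fold lower, and dotted lines mark 2-fold. Mt2 and Mt1 stand highest and Fasn lowest.

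The metallothioneins, small cysteine-rich proteins that bind zinc and are induced by metals and glucocorticoids, had the highest ratios of all. Mt2 stood at 27.1 CPM in the fed library (25.4 to 28.8) and 1839 CPM at 4 h (1827 to 1852), a log2 ratio of 6.09 (6.00 to 6.18). Mt1 stood at 111 CPM (108 to 115) and 5308 CPM (5287 to 5329), a log2 ratio of 5.58. The other measured members of the zinc list did not follow: the exporters Slc30a1 and Slc30a10 had log2 ratios of -0.13 and -0.62, and the importers Slc39a14 and Slc39a1 had -0.08 and 0.08. The metal-sensing factor Mtf1 was below the minimum at 18.1 and 15.1 CPM. In cells thinned to 1000 UMIs, Mt1 was found in 8.76% of fed hepatocytes (8.14 to 9.42) and 96.5% of 4 h hepatocytes (95.9 to 97.0). The unthinned shares were 30.1% and 99.8%. Of 226 endothelial barcodes in the fed library, 31.9% held Mt1 at the same depth, more than the fed hepatocytes did, and whether this came from the endothelial cells or from free RNA was not tested. The 7 endothelial barcodes at 4 h all held Mt1.

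The 2 genes lie next to each other in one orientation on chromosome 8 (GRCm38). RefSeq gives the 250 bases before each annotated start, on the plus strand, as chr8:94178839-94179088 for Mt1 and chr8:94172368-94172617 for Mt2. They are shown because these were the steepest of all ratios and the genes have a known motif, with capitals marking the metal response element core TGCNCNC on either strand.
Mt1: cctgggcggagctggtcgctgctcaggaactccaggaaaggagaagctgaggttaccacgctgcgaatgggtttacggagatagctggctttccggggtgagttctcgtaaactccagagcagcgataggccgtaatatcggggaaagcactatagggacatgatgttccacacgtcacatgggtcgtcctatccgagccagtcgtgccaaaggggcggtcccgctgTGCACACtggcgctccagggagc
Mt2: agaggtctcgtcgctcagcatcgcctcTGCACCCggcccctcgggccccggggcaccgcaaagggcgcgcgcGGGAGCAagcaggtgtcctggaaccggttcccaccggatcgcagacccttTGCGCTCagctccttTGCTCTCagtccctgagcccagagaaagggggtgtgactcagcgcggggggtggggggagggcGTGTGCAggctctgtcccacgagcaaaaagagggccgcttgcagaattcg
The full windows, which add 50 bases after the start, held 3 copies for Mt1 and 6 for Mt2. The core is short, and 53.6% of 27025 genes with a window held at least 1 copy. At least 3 copies were found for 8.04% of genes and at least 6 for 0.263%. All 5 measured zinc genes with a window held a copy, including those that stood close to their fed level.

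Many glucocorticoid targets stood high. Of 18 genes listed, 14 were above fed at any level and the median log2 ratio of all 18 was 1.33. Of the 12 measured, 7 were called higher and 2 lower, with a median of 2.22, but Mt2, Zbtb16, Fkbp5 and Angptl4 passed the minimum only through the 4 h library. The median was 1.17 with a minimum of 10 CPM and 1.54 for the measured members in barcodes under 2% mitochondrial UMIs. Apart from the metallothioneins, Zbtb16, a transcriptional repressor, stood at 4.21 CPM in the fed library and 61.5 CPM at 4 h, a log2 ratio of 3.87 (3.64 to 4.11). Fkbp5, a chaperone of the steroid receptors, stood at 22.1 and 134 CPM, a log2 ratio of 2.60. Klf9, a zinc finger factor, stood at 121 and 503 CPM (2.05), and Lpin1, a phosphatidate phosphatase, at 181 and 937 CPM (2.38). Angptl4, a secreted inhibitor of lipoprotein lipase and also a PPAR alpha target, stood at 9.34 and 130 CPM (3.80). Tat, the tyrosine aminotransferase long used as a glucocorticoid marker, stood at 1657 and 2442 CPM, a log2 ratio of 0.56 that was not called. Tsc22d3 (0.29) and Errfi1 (-0.08) were near their fed level. Dusp1, a phosphatase gene, and Pik3r1, a regulatory subunit of phosphoinositide 3-kinase, were called lower, both with a log2 ratio of -1.17. Per1 and Sgk1 were below the minimum, with 9.61 and 14.8 CPM fed and 18.4 and 7.53 CPM at 4 h.

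Of 13 cAMP targets 9 were below and 4 above fed at any level, with a median of -0.41, and only 3 were measured, with a median of 0.33. Ppargc1a, which passed the minimum only through the 4 h library, was called higher and Dusp1 lower, and Creb3l3, a liver factor of the fasting response, stood at a log2 ratio of 0.33.

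Genes that insulin holds down through FoxO differed from one another. Of 15 listed, 11 were above fed at any level, with a median of 0.58. The 7 measured genes had a median of 0.77, with 3 called higher, all of them passing the minimum only through the 4 h library, and 1 called lower, which passed only through the fed library. Igfbp1, a secreted binding protein for insulin-like growth factors, stood at 21.4 CPM fed (19.9 to 22.9) and 276 CPM at 4 h (271 to 281), a log2 ratio of 3.69. Foxo1 itself stood at 29.6 and 80.8 CPM (1.45), and Ppargc1a, the coactivator PGC-1 alpha, at 24.0 and 56.0 CPM (1.22). Txnip, which restrains glucose uptake and is induced by glucose, stood at 143 and 44.0 CPM (-1.70). The insulin receptor gene Insr stood at 133 and 139 CPM. Irs2, the docking protein for that receptor, stood at 10.4 and 30.1 CPM and was below the minimum. The list's median was -0.24 in cells of 5 to 15% mitochondrial UMIs, so its sign depends on the cells taken.

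Fatty acid synthesis genes stood low. Of 20 genes listed for lipogenesis and desaturation, 18 were measured, 9 were called lower, none higher, and 14 were below their fed level, with a median of -0.82. Over all 20 members the median was -1.31, with 16 below fed. Fasn, the fatty acid synthase, stood at 2021 CPM fed (2006 to 2035) and 83.1 CPM at 4 h (80.5 to 85.8), a 24.3-fold difference and the lowest ratio of all 2948 genes (-4.60, -4.65 to -4.56). Elovl6, which lengthens palmitate, stood at 863 and 61.4 CPM (-3.81). Mid1ip1, which promotes polymerisation of acetyl-CoA carboxylase, stood at 270 and 19.9 CPM (-3.76). The carboxylase gene Acaca stood at 275 and 52.8 CPM (-2.38), Acly, which supplies cytosolic acetyl-CoA, at 1860.0 and 429.7 CPM (-2.11), and Srebf1, which encodes SREBP-1, at 438 and 88.4 CPM (-2.31). Thrsp (-1.70), Gpam (-1.65) and Me1 (-1.01) completed the called members.

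The members that make unsaturated and very long chains did not share this. Scd1, the main desaturase of liver, stood at 7548 and 5996 CPM, a log2 ratio of -0.33. Fads1 and Fads2, which desaturate polyunsaturated chains, had log2 ratios of 0.86 and 0.41, and Elovl5 and Elovl2 had 0.07 and 0.10. Mlxipl, which encodes ChREBP, stood at 170 and 109 CPM (-0.64), and Acacb, the carboxylase at the mitochondrial surface, at 64.2 and 45.5 CPM (-0.50). Elovl3, an elongase of saturated chains that follows growth hormone and the clock, went the other way from Elovl6, with 6.46 CPM fed and 234 CPM at 4 h (5.18, 5.00 to 5.37). Angptl8, an insulin-induced secreted regulator of lipoprotein lipase, stood at 499 and 35.4 CPM (-3.82), opposite to Angptl4. Aacs, which activates acetoacetate for lipid synthesis, stood at 142 and 15.1 CPM (-3.23).

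The cell-level shares followed the sums. Fasn was found in 81.2% of fed (80.4 to 82.1) and 6.43% of 4 h hepatocytes (5.74 to 7.18) at 1000 UMIs per cell, and in 96.2% and 43.3% unthinned. Endothelial barcodes of the fed library held Fasn in 61.5% at the same thinned depth and in 77.9% unthinned. Their unthinned median was 1706.5 nuclear UMIs, beside 4796 in the fed hepatocytes. Elovl6 was found in 51.2% and 5.03% of hepatocytes and in 14.2% of the fed endothelial barcodes. Angptl8 was found in 38.2% and 3.20%, beside 13.3% of those barcodes.

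Sugar-handling genes were lower at several steps. Of 15 listed, 13 were measured and 5 were called lower, with a median of -0.73. Gpi1, the glucose phosphate isomerase, stood at 355 and 136 CPM (-1.39) and Pklr, the liver pyruvate kinase, at 213 and 96.8 CPM (-1.14). On the fructose branch, Tkfc, the triokinase, stood at 1041 and 351 CPM (-1.57), while Khk, the fructokinase, stood at 907 and 567 CPM (-0.68) without a call. The glycolytic genes shared with glucose production lay near their fed level, with log2 ratios of 0.22 for Tpi1, -0.11 for Gapdh, 0.15 for Pgk1 and 0.05 for Pgam1. The group's 5 calls became 3 with TMM or median-of-ratios scaling.

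No measured glycogen gene was called, and 5 of 6 were below fed, with a median of -0.72. Over all 11 listed members the median was -0.11, with 6 below fed. Ppp1r3b, which brings phosphatase to glycogen, stood at 671 and 340 CPM (-0.98, just inside the 2-fold limit). Pygl, the phosphorylase, and Ugp2, which makes UDP-glucose, had log2 ratios of -0.85 and -0.82. The synthase Gys2 stood at 114 and 106 CPM (-0.11), and Ppp1r3c, another phosphatase subunit, at 39.7 and 72.3 CPM (0.86).

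Gluconeogenesis genes did not move as a block. Of 15 listed, 14 were measured, 2 were called higher and none lower, and the median was -0.08. Pck1 (chromosome 2, 173153048 to 173159273, GRCm38), which makes phosphoenolpyruvate from oxaloacetate, stood at 899 and 3983 CPM (2.15, 2.13 to 2.16). Got1, the cytosolic aspartate aminotransferase that feeds the same oxaloacetate pool, stood at 121 and 555 CPM (2.20, 2.15 to 2.24). The later steps stood at or below the fed level: Fbp1, fructose bisphosphatase, at 1098 and 711 CPM (-0.63), Slc37a4, the glucose-6-phosphate carrier, at 225 and 188 CPM (-0.26) and G6pc, the phosphatase that releases glucose, at 398 and 339 CPM (-0.23). Pcx, pyruvate carboxylase, had a log2 ratio of -0.07. Gk, glycerol kinase, and Got2 and Gpt2, mitochondrial aminotransferases, had 0.68, 0.36 and 0.35. Pck1 was found in 47.2% of fed and 91.2% of 4 h hepatocytes at 1000 UMIs (78.4% and 97.3% unthinned), beside 21.7% of fed endothelial barcodes and 6 of the 7 at 4 h (85.7%, 42.1 to 99.6). For G6pc the shares were 28.8% and 23.6% at 1000 UMIs and 66.5% and 70.3% unthinned, beside 2.65% of fed endothelial barcodes at 1000 UMIs.

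**Figure D2:**
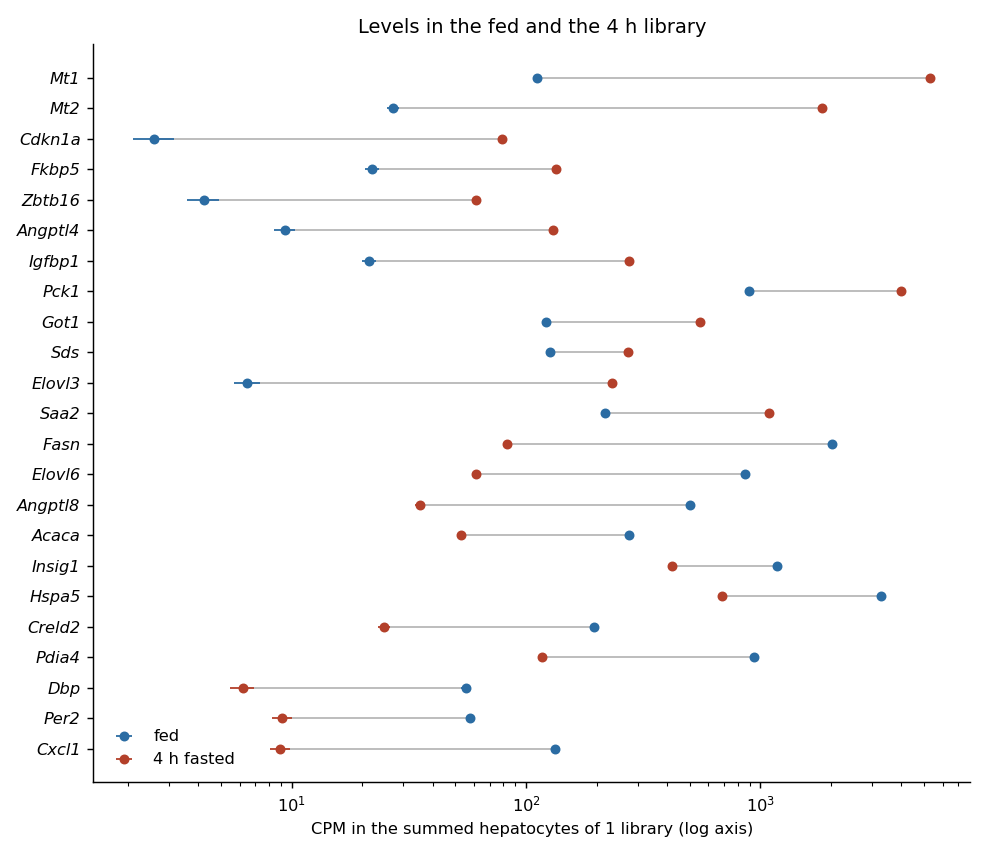
Levels of 23 named genes in the summed hepatocytes of the fed library (blue) and the 4 h library (red), in CPM on a log axis, with 95% Poisson intervals that are mostly smaller than the points. Grey lines join the 2 libraries of 1 gene. Mt1 goes from 111 to 5308 CPM and Fasn from 2021 to 83.1 CPM.

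Amino acid breakdown enzymes stood a little higher across most of the list. Of 28 measured genes, 23 were above fed and 2 were called higher (7.14%), with a median of 0.42. Among all genes compared, 5.73% were called higher and 52.0% were below fed. Sds, serine dehydratase, stood at 127 and 271 CPM (1.10), and Oat, ornithine aminotransferase, at 146 and 302 CPM (1.05). Prodh (0.92), which opens proline breakdown, Glud1 (0.90), glutamate dehydrogenase, and Tdo2 (0.82), which opens tryptophan breakdown, were the nearest below the limit. Haao, a later step of tryptophan breakdown, was the lowest at -0.68, and Gls2, the liver glutaminase, had -0.36. Of the 8 urea cycle genes none was called. Ass1, which makes argininosuccinate, stood at 2485 and 3250 CPM (0.39), while Cps1, Otc and Asl had 0.13, -0.13 and -0.10. In cells of at least 3000 UMIs with a low ribosomal share, described below, the amino acid median was -0.12, so its sign depends on the cells taken. The median of all genes was -0.44 in those cells, beside -0.03 in the main comparison.

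Fatty acid oxidation and ketogenesis genes were close to fed at 4 h in the hepatocytes kept by the rule. None of the 26 measured genes was called, 12 were above and 14 below fed, and the median was -0.02. The highest were Ppara (0.74), the receptor that drives the fasting program, and Cpt1a (0.70), the entry step into mitochondria. The list median moved with the cells taken, from -0.21 to 0.32 over the alternatives. In barcodes under 2% mitochondrial UMIs it was 0.25, with 21 of 26 members above fed, where the median of all genes was -0.21. Among 9 measured PPAR alpha targets outside oxidation, Angptl4 and Plin5, a lipid droplet coat, were called higher (3.80 and 1.16), and both passed the minimum only through the 4 h library. The measured members had a median of -0.35, with 5 of 9 below fed, and all 19 listed members a median of 0.33, with 11 above fed, so the sign turns with the minimum. Cyp4a10 and Cyp4a14, fatty acid hydroxylases with close paralogs, had -0.85 and -0.82. Below the minimum, Acot1, a cytosolic thioesterase, stood at 2.78 and 43.4 CPM, Fgf21, the fasting hormone, at 6.27 and 0.417 CPM, and Pdk4, which blocks pyruvate oxidation, at 1.96 and 2.17 CPM.

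Cholesterol synthesis and uptake genes stood low together. All 18 measured genes of 20 listed were below fed and 7 were called lower, with a median of -0.94. Insig1, the sterol-regulated anchor of SREBP, stood at 1177 and 419.8 CPM (-1.49). Sqle, squalene epoxidase, stood at 181 and 63.9 CPM (-1.50), Idi1 at 336 and 125 CPM (-1.43) and Msmo1 at 261 and 121 CPM (-1.11). Fdps stood at 251 and 125 CPM, just inside the 2-fold limit, and Srebf2, the family's own factor, had -0.78. Dhcr7, the last step of one branch, was the nearest to fed at -0.22.

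ER folding genes stood low, with a median of -1.11. Of 23 listed, 19 were measured, 11 were called lower, none higher, and 18 were below fed. Hspa5, the chaperone BiP, stood at 3266 and 689 CPM (-2.25, -2.26 to -2.23). Pdia4, a disulfide isomerase, stood at 937 and 117 CPM (-3.00), Creld2 at 195 and 24.8 CPM (-2.98), Sdf2l1, a cofactor of BiP, at 148 and 26.7 CPM (-2.47) and Hyou1, its nucleotide exchange factor, at 328 and 64.8 CPM (-2.34). Manf (-2.20), Dnajb9 (-2.12), Xbp1 (-1.74), Hsp90b1 (-1.39), Pdia3 (-1.11) and Sel1l (-1.05) completed the 11. The lectin chaperones Calr and Canx had -0.78 and -0.63. Herpud1, a degradation adaptor, was the exception above fed, at 689 and 1005 CPM (0.54). Atf4, the factor of the amino acid branch of the stress response, had -0.28, and 4 of its targets were below the minimum and differed in direction. Trib3 stood at 1.46 and 4.81 CPM and Chac1 at 3.47 and 7.38 CPM, while Ddit3 stood at 17.0 and 7.66 CPM and Asns at 1.11 and 1.01 CPM. Hspa5 was found in 91.4% of fed and 46.9% of 4 h hepatocytes at 1000 UMIs (97.5% and 83.6% unthinned), beside 63.3% of the fed endothelial barcodes.

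Several of these promoters carry the ER stress response element, written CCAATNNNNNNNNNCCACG. It was found on either strand in the RefSeq windows (250 bases before to 50 after the start, GRCm38.p6) of 7 of the 17 measured ER genes with a window, and of 37 of 27025 genes in all (0.137%). Hyou1 and Manf were named in the list without a window. The 8 sites follow with 5 bases on each side, read on the strand that carries the element, and capitals mark the element.
Hspa5 (chr2:34772020-34772048, plus): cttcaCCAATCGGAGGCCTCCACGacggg
Hsp90b1, site 1 (chr10:86705633-86705661, minus): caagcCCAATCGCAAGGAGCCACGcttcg
Hsp90b1, site 2 (chr10:86705528-86705556, plus): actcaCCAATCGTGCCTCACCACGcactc
Creld2 (chr15:88819515-88819543, minus): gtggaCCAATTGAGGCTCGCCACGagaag
Dnajc3 (chr14:118937822-118937850, plus): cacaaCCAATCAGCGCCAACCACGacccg
Pdia6 (chr12:17266486-17266514, plus): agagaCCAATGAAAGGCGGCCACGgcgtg
Calr (chr8:84847070-84847098, plus): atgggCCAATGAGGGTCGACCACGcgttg
Canx (chr11:50325795-50325823, minus): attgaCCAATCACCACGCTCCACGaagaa
Hspa5, Hsp90b1 and Creld2 were called lower, while Dnajc3 (-0.61), Pdia6 (-0.90), Calr and Canx were below fed without a call. Of the 9 called ER genes with a window 3 held this exact spelling, and Pdia4 and Sdf2l1 did not. A match is a description of the letters and not a bound site.

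The heat shock list was also lower, with a median of -0.56 over the measured and -1.32 over all 11 members. Of 6 measured heat shock genes, Hsph1 stood at 148 and 42.5 CPM (-1.80) and Hsp90aa1 at 501 and 201 CPM (-1.32), and both were called lower. The cytosolic Hsp90ab1 (-0.62) and Hspa8 (-0.31) were below fed, and the mitochondrial chaperonin Hspd1 and its partner Hspe1 were at 0.14 and -0.49. Hspa1b, which is induced by heat and stress, was below the minimum at 21.8 and 2.06 CPM.

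Growth arrest genes split. Cdkn1a, the cell cycle inhibitor p21, stood at 2.59 CPM fed (2.11 to 3.16) and 79.2 CPM at 4 h (76.7 to 81.8), a log2 ratio of 4.93 (4.64 to 5.24). Trp53inp1, another p53 target, stood at 57.1 and 117 CPM (1.03). Gadd45a, a stress-induced growth arrest gene, went the other way, with 50.3 and 6.17 CPM (-3.03), and Gadd45g had -0.41. The p53 targets Mdm2 and Ccng1 were below the minimum and near equal, with 23.7 and 22.2 CPM for Mdm2 and 28.2 and 28.0 CPM for Ccng1. Other members below the minimum differed. Btg2 stood at 22.8 and 46.1 CPM, Sesn2 at 2.65 and 6.24 CPM and Ddit4 at 5.29 and 14.8 CPM, while Plk2 stood at 8.71 and 4.35 CPM. Of all 12 listed members 7 were above and 5 below fed, with a median of 0.24. Cdkn1a was found in 0.195% of fed and 6.85% of 4 h hepatocytes at 1000 UMIs (0.936% and 43.5% unthinned), beside 3.54% of the fed endothelial barcodes.

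Inflammatory genes also split. Saa2 and Saa1, near-identical acute-phase genes whose reads cannot be fully told apart, stood at 217 and 1085 CPM (2.32) and at 382 and 1148 CPM (1.59). The other 17 measured acute-phase genes held 1 call, Steap4 at 214 and 88.9 CPM (-1.27). Hp (0.13), Fgb (-0.04) and Orm1 (-0.08) stood near fed. Of 17 chemokine and cytokine genes 13 were below fed at any level, with a median of -1.70, beside -0.05 over the 5 measured. The other 12 were below the minimum. With no minimum, 16.7% of all genes were at least 2-fold lower and 5.68% at least 2-fold higher. The endothelial, Kupffer and stellate marker sums fell from 77.4, 40.9 and 26.6 CPM to 11.2, 2.90 and 1.38 CPM. The part of such cells in these values was not tested. Cxcl1, a neutrophil-attracting chemokine, stood at 133 and 8.89 CPM (-3.90), and Inhba, which encodes the activin A subunit, at 116 and 7.84 CPM (-3.88). Il6ra, the interleukin 6 receptor that acts upstream of Saa genes, stood at 40.9 and 135 CPM (1.72), and Socs3, a feedback inhibitor of that receptor, was below the minimum at 31.4 and 7.66 CPM. Of the immediate-early genes, which respond to handling as well as to signals, Egr1 stood at 39.1 and 94.1 CPM (1.27), while Jund, Zfp36 and Junb had log2 ratios of -0.10, 0.16 and -0.64. Fos and Jun were below the minimum.

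Clock genes were compared because hours 13 and 17 differ. Per2, of the repressor arm, stood at 57.7 and 9.09 CPM (-2.67), and Bhlhe40, another repressor, at 363 and 114 CPM (-1.66). The D-box factor Dbp, a direct clock output, stood at 55.3 and 6.17 CPM (-3.16), beside -0.58 and -0.41 for its relatives Tef and Hlf. Clock, Cry1 and Rora had log2 ratios of 0.84, 0.81 and 0.51. Arntl, which encodes BMAL1, was below the minimum at 5.50 and 32.1 CPM, and Nr1d1, which represses it, at 14.1 and 3.38 CPM. Por, the reductase that serves P450 enzymes and is an output of the clock, stood at 159 and 400.2 CPM (1.33). In the 24 h library, which shared hour 13 with the fed library, Per2, Dbp and Arntl stood at 17.9, 62.9 and 6.71 CPM.

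Of 12 listed genes of the growth hormone and IGF axis, 5 were above fed, with a median of -0.11. The 3 called higher, all of which passed the minimum only through the 4 h library, were Elovl3, Igfbp1 and Socs2. Besides Elovl3 and Igfbp1, Socs2, a feedback inhibitor of growth hormone signalling, stood at 12.5 and 54.3 CPM (2.12), while Igf1 and Ghr had log2 ratios of 0.18 and -0.14. Major urinary protein genes, pheromone carriers that are near-identical to each other so that single members are uncertain, held 6 calls of 12 measured, all lower, with a median of -1.02, and of -1.16 over all 18 listed. Mup7 stood at 2528 and 650.3 CPM (-1.96) and Mup3 at 16089 and 12766 CPM (-0.33), and the summed level of the listed family was 39235 and 24218 CPM. None of 13 bile acid genes was called, with Cyp7a1, the rate-limiting enzyme of the classic pathway, at 72.6 and 128 CPM (0.81). None of 15 P450 genes was called, with Cyp3a11 at 4696 and 7043 CPM (0.58). This depends on the cells taken. The list's median was 0.28, but -0.10 in cells of 5 to 15% mitochondrial UMIs and 1.27, past 2-fold, in cells of 8000 to 12000 UMIs. Cyp2b10, a target of the receptor CAR, was below the minimum at 6.01 and 45.2 CPM.

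Transcripts of most plasma proteins stood within 2-fold of the fed level. None of 25 plasma protein and apolipoprotein genes was called, and their sum was 181683 and 158775 CPM. Their median of -0.14 ranged from -0.26 to 0.51 over the alternatives. Alb stood at 76395 and 57626 CPM (-0.41), Ttr at 6752 and 6730.1 CPM, Serpina1a at 3065 and 4493 CPM (0.55) and Apoa5, which aids triglyceride clearance, at 827 and 1392 CPM (0.75). None of 15 autophagy and lysosome genes was called, with Gabarapl1 (0.88), Lipa (0.70) and Map1lc3b (0.69) highest. Of 8 iron genes only Tfrc, the transferrin receptor, was called, at 68.5 and 25.6 CPM (-1.42), while the ferritins Fth1 and Ftl1 had 0.60 and 0.54.

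**Figure D3:**
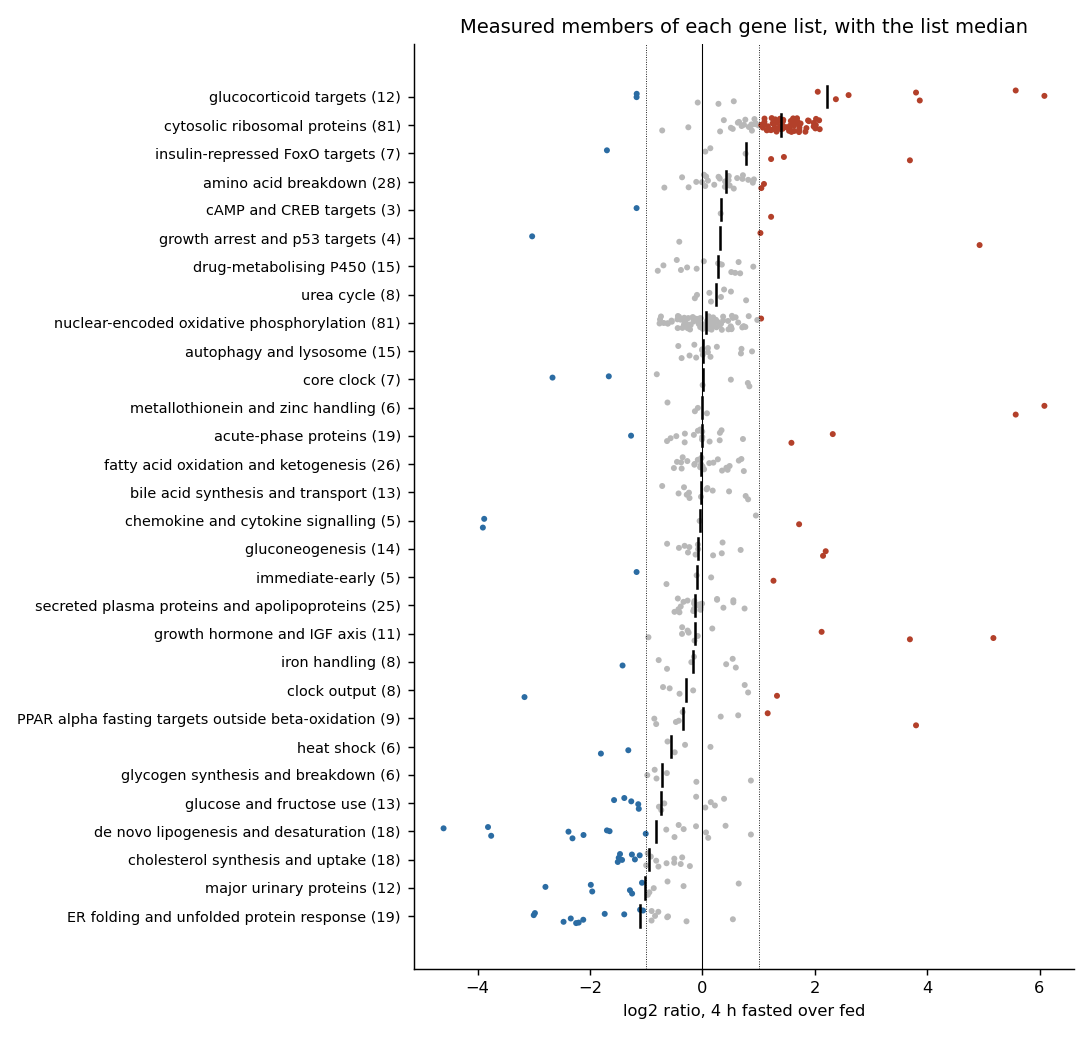
Log2 ratio of 4 h to fed for every measured member of 30 gene lists, ordered by the list's median (black bar), with the number of measured members in brackets. Red and blue points are members called higher and lower, grey points are not called, and dotted lines mark 2-fold. Glucocorticoid targets (median 2.22) stand at the top and ER folding genes (-1.11) at the bottom.

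Cytosolic ribosomal protein genes formed the largest block of higher calls. Of 85 listed, 81 were measured, 62 were called higher, none lower, and 79 were above fed, with a median of 1.39. Their summed level was 36987 CPM fed and 89654 CPM at 4 h. Rpl10 stood at 216 and 920.0 CPM (2.09), Rpl30 at 459 and 1866 CPM (2.02) and Rps18 at 412 and 1669 CPM (2.02). The 2 members below fed were Rpl7l1 (-0.71) and Rps27l (-0.25), both paralogs of standard ribosomal proteins. Some ribosomal genes have many processed pseudogenes, and the counting could split their reads. The nuclear genes of the mitochondrial respiratory chain did not share this, with 1 call (Ndufb5, 1.05) among 81 measured and a median of 0.06.

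An annotated start with a C followed by at least 4 C or T, the start of messages whose translation follows growth signals, was found for 13 of the 61 measured ribosomal genes with a RefSeq window (21.3%) and for 3.01% of all genes.

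The ribosomal difference moved with the cells taken. The median ribosomal share of a hepatocyte's nuclear UMIs was 3.39% fed and 9.13% at 4 h. At 8000 to 12000 UMIs it was 3.82% and 6.84%, and 21 of 81 members were called there. At 5000 to 15000 UMIs 31 were called. In the barcodes under 2% mitochondrial UMIs the shares were 13.6% and 14.9%, and the list's median log2 ratio was 0.36, with 54 of 81 members above fed. Of all 345 called genes, 327 had the same sign in those barcodes. They came from the same 2 libraries, so this count is not independent of the calls.

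The 4 h hepatocytes fell into 2 ranges of ribosomal share. Of 1707 cells with 5000 to 20000 UMIs, 154 had a share of 1 to 2%, 51 had 4 to 5% and 321 had 8 to 9%. The 4218 fed cells of the same depth had a single peak, with 1693 at 3 to 4%. Cells of at least 3000 UMIs were therefore divided at 4%, a limit chosen after the values were seen. The low range held 399 cells at 4 h (12.1%) and 4288 fed cells (73.5%), with 41 and 947 of them within 0.5 points of the limit. At 4 h the low cells had 24.4% mitochondrial UMIs beside 19.8% in the others, 119572 beside 54130 CPM of Alb, and 3798 beside 1482 CPM of the nuclear RNA Neat1. Fasn stood at 55.6 CPM in the low and 87.7 CPM in the other 4 h cells, beside 2077 CPM in the low fed cells. Mt1 stood at 2857, 5359 and 75.6 CPM in the same 3 sets. Between the low cells of both libraries, 10 lipogenic, 10 cholesterol and 9 ER genes were called lower and 7 glucocorticoid targets higher, where 21.4% of the 2833 genes compared were lower and 3.88% higher. Log2 ratios there were 5.24 for Mt1, -5.22 for Fasn, 1.27 for Pck1 and -1.99 for Hspa5. The split of all calls was 110 higher and 605 lower, with the median gene at -0.44.

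**Figure D4:**
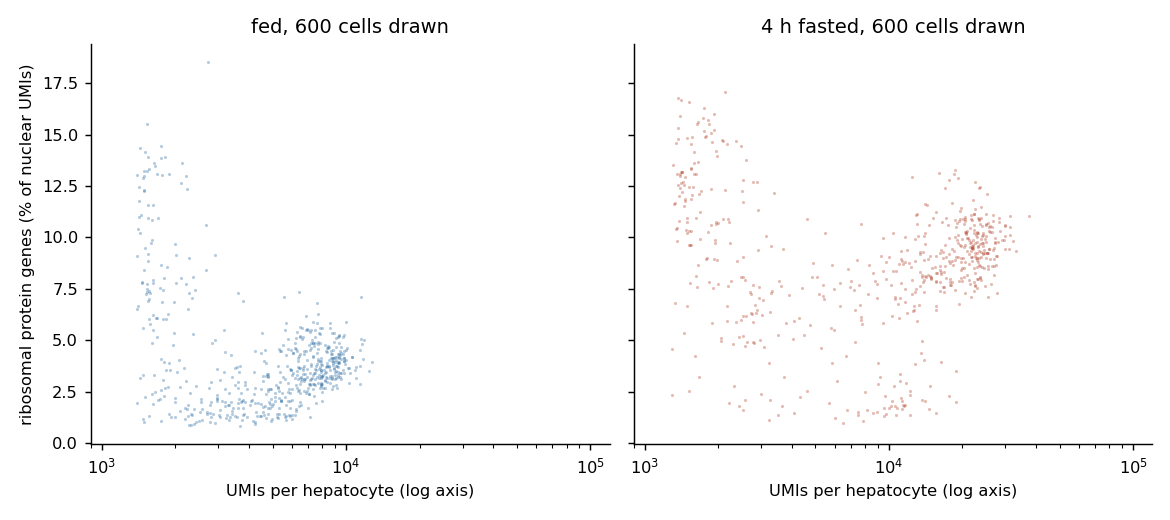
Ribosomal protein genes as a percentage of nuclear UMIs (y axis) against UMIs per hepatocyte (x axis, log axis), for 600 cells drawn at random from each library. The fed median is 3.39%, with 80% of cells between 1.52 and 7.33%, and the 4 h median is 9.13%, with 80% between 4.01 and 13.0%. Cells under 3000 UMIs spread more widely and higher in both, with 10% of them above 12.7% fed and 15.2% at 4 h, and above that the 4 h cells form an upper and a smaller lower group.

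Portal and central hepatocytes were compared within each library. Cells were ranked by portal minus central landmark genes and cut into 3 equal parts, so the parts are ranges and not places, and 18.0% and 17.9% of cells lay within 0.1 SD of a limit. Cyp2e1, a central landmark, stood at 5401 CPM in the central and 111 CPM in the portal part of the fed library, and at 8947 and 110 CPM at 4 h. Cyp2f2, which is higher near the portal vein, stood at 905 CPM in the central and 2214 CPM in the portal part of the fed library, and at 238 and 1953 CPM at 4 h, so the parts were less sharply separated by it in the fed library. The fed central part held 132 barcodes with endothelial markers and the 4 h central part 5. The parts also differed in depth: the central part had a median of 2757 UMIs fed and 2849 at 4 h, the portal part 7058 and 19612. The ratios were therefore taken again in cells of at least 3000 UMIs.

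Most of the leading genes differed in the same direction at both ends. Pck1 was 1235 and 4612 CPM in the portal part (1.90, 1.88 to 1.92) and 473 and 2800.4 CPM in the central part (2.56, 2.52 to 2.61), and 1.86 and 2.41 in the deeper cells. Thrsp, a lipogenic regulator, had -2.01 in the portal and -1.21 in the central part (-2.06 and -1.35 in deeper cells). Fasn had -4.75 and -4.37. Over all 2948 genes, 56.0% had the higher log2 ratio in the central part, and 61.9% in the deeper cells. Of 26 fatty acid oxidation genes 22 did so, and 24 in deeper cells. Of 18 lipogenic genes 14 did so, and 13 in deeper cells, with list medians of -0.98 portal and -0.71 central. For cholesterol genes 16 of 18 did so, with -1.10 and -0.65, and in deeper cells 16 of 18 with -1.11 and -0.71. Cyp4a10 had -1.41 portal and -0.06 central, Tfrc -1.84 and -0.58, and the aldehyde dehydrogenase gene Aldh3a2 0.11 and 1.28, with -1.46 and -0.20, -1.87 and -0.84, and 0.08 and 1.42 in deeper cells. Mt2 had 6.08 and 6.14. Cdkn1a had 5.05 and 4.10, but 4.98 and 5.18 in deeper cells. These named genes other than Pck1, Fasn, Mt2 and Cdkn1a were chosen after their values were seen.

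**Figure D5:**
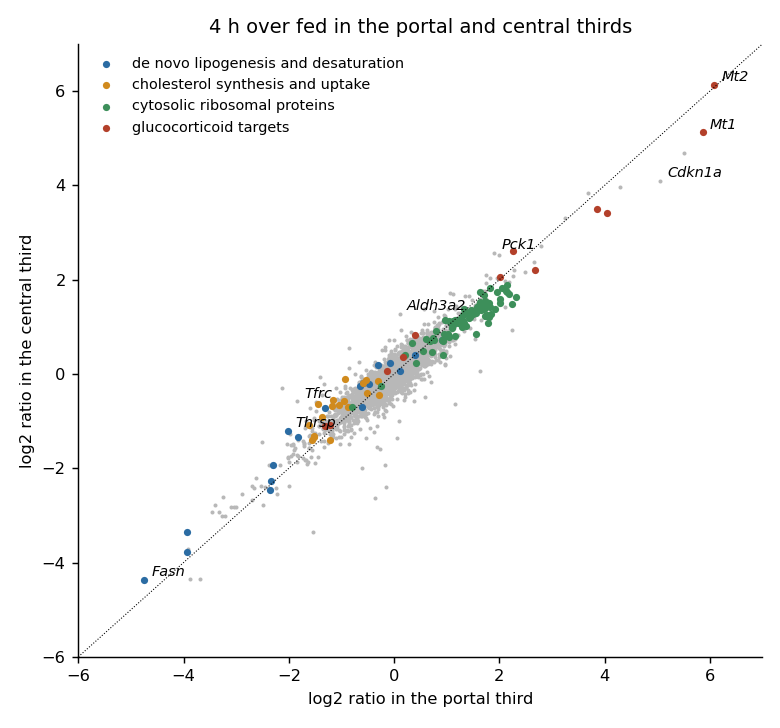
Log2 ratio of 4 h to fed in the portal part (x axis) and the central part (y axis) for 2948 genes, with 4 lists in colour and equal ratios on the dotted line. Points follow the line, and lipogenic and cholesterol genes lie mostly above it.

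The remaining genes at either end were from outside the lists. Nlrp12, a cytosolic innate immune sensor, stood at 5.56 and 101 CPM (4.19), Rnf125, a ubiquitin ligase, at 13.0 and 122 CPM (3.23) and Upp2, a uridine phosphorylase of liver, at 101 and 482 CPM (2.26). The predicted genes Gm16573 and Gm43305 had 2.87 and 2.61. At the low end, Nrep (-3.20), the non-coding RNA Snhg9 (-3.17), Rcan1 (-3.09), a calcineurin inhibitor, and Tuba1c (-3.09), a tubulin, joined those named above. Tmsb4x, an actin-binding peptide gene abundant in endothelial and blood cells, stood at 57.0 and 6.44 CPM (-3.15), with 0.93 in cells of 5000 to 15000 UMIs. The endothelial marker sum was 77.4 CPM fed and 11.2 CPM at 4 h, and the Tmsb4x ratio was -3.22 without the barcodes that held markers of other cell types. In the fed library Tmsb4x stood at 204 CPM in the central part, which held 132 barcodes with endothelial markers, and at 7.63 CPM in the portal part. In cells of at least 3000 UMIs its ratio was -1.85 portal and -1.74 central. The part of other cells in these values was not tested.

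The later libraries give these values a frame, with 1 library each and the same fed library behind every ratio. Mt2 stood at 1716, 505 and 405 CPM in the 8, 16 and 24 h libraries, and Cdkn1a at 264, 1.73 and 7.34 CPM. Fasn stood at 93.8, 126 and 114 CPM, near its 4 h level of 83.1 CPM in all 3. Got1 stood at 1331, 207 and 459 CPM, Igfbp1 at 276, 117 and 62.6 CPM, and Saa2 at 12.8, 4946 and 9.66 CPM. The ribosomal sum was 82247, 42244 and 69223 CPM, and hepatocytes numbered 2716, 9125 and 4576.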

How the data were processed

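The deposited matrices hold whole-number UMI counts per gene and barcode, with 10000 barcodes for each library. Reads were processed with Cell Ranger 6.0.1 and the mm10 build, per the submitters' processing notes. From these counts, hepatocyte barcodes were chosen by the limits given above, mitochondrial genes were set aside, UMIs were summed per library, and log2 ratios of CPM were taken with no pseudocount. A call needed 2-fold and 50 CPM in either library. Shares of cells were taken after thinning to 1000 UMIs per cell, over 7690 fed and 4556 4 h hepatocytes. The 136 and 7 hepatocyte barcodes with endothelial markers were left out of these and counted among the 226 and 7 endothelial barcodes set beside them, and 4 shallower cells were left out at 4 h. No doublet caller was run, and leaving out the 5% of cells with most UMIs was an alternative. Named genes were the 15 highest and 15 lowest ratios, the called members and nearest ends of each list, and Pck1, G6pc, Fbp1 and Pcx, and other list members were named for their role after their values were seen. The hepatocyte limits, gene lists and members were chosen with earlier results of these data known. The tools were R 4.3.3 with edgeR 4.0.16, for TMM factors only, and SciPy 1.17.1, NumPy 2.4.6 and pandas 2.3.3 under Python 3.11.15. The ratio and interval code was tested on simulated data. Gene positions are GENCODE on GRCm38 and promoter sequences are RefSeq on GRCm38.p6. The alternatives were other scalings, expression minimums, mitochondrial and UMI ranges, cells without other markers and per-cell means.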

Additional observations from a re-analysis of the deposited data

How the results depend on the processing

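No paired analysis was possible because each group was 1 library, and no replicate could be left out. Under the 17 alternatives, or 16 for the 62 ribosomal genes, which were left out where cells were chosen by ribosomal share, 149 of the 150 named genes with a 2-fold difference kept their direction and 85 kept the 2-fold difference. Of the 10 lists with a median of at least 0.5 in either direction, 9 kept their sign. The 169 higher and 176 lower genes became 268 and 441 with a minimum of 10 CPM, and 843 and 2472 with none. Lower genes numbered 105 with a minimum of 100 CPM, where fewer genes were compared, 112 with median-of-ratios scaling and 319 in cells of 5 to 15% mitochondrial UMIs. The 5 glucose and fructose genes called lower became 3 with TMM and 3 with median-of-ratios scaling. Cholesterol genes called lower, 7 in the main comparison, were 11 in cells of 5 to 15% mitochondrial UMIs and 4 in cells of 5000 to 15000 UMIs. Major urinary protein genes called lower, 6 in the main comparison, were 10 with no minimum, 3 at 5000 to 15000 UMIs and 2 at 8000 to 12000 UMIs. The 62 ribosomal genes called higher were 31 and 21 in those 2 ranges. The FoxO median of 0.77 was -0.24 in cells of 5 to 15% mitochondrial UMIs. The Tmsb4x ratio of -3.15 was 0.93 in cells of 5000 to 15000 UMIs. In cells of at least 3000 UMIs with under 4% ribosomal UMIs, 110 genes were higher and 605 lower, the FoxO median was -0.11 and Tmsb4x was 0.18. The Fbp1 ratio in the central minus the portal part was -0.10 when zones were drawn among cells of at least 3000 UMIs, where the main value had the other sign. The cause of these changes was not tested. The 8000 to 12000 UMI range, the low ribosomal range, the deeper zones and the ribosomal denominator were chosen after seeing the data. Depth limits the genes under 50 CPM and the central part, and 1 library a side gives no replicate spread.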

Other observations

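A few further groups outside the lists were collected after their values were seen, so they carry no weight beyond their values. Of 19 measured translation genes whose messages are known to be regulated like those of ribosomal proteins, 7 were called higher and none lower, with a median log2 ratio of 0.57. Fau, which encodes a ribosomal protein fused to a ubiquitin-like part, stood at 587 and 2145 CPM in the fed and the 4 h library (1.87). Eef1b2, an elongation factor subunit, stood at 163 and 463 CPM (1.50), and Tpt1 at 1110.2 and 2409 CPM (1.12). Eef1a1, the main elongation factor, stood at 2643 and 4552 CPM (0.78) and Pabpc1, the poly(A) binding protein, at 461 and 262 CPM (-0.82). In barcodes under 2% mitochondrial UMIs the median of the group was 0.19.

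Of 15 measured cytoskeletal genes, 7 were called lower and all 15 were below fed, with a median of -0.86. Over all genes compared, 5.97% were called lower and 52.0% were below fed. The endothelial, Kupffer and stellate markers, from cell types that also express these genes, summed to 77.4, 40.9 and 26.6 CPM in the fed and 11.2, 2.90 and 1.38 CPM in the 4 h library, and their part in these values was not tested. The lowest member, Tmsb4x (-3.15), was at 0.93 in cells of 5000 to 15000 UMIs. Actg1, gamma actin, stood at 422 and 75.9 CPM (-2.47), Tubb4b, a tubulin, at 119 and 33.8 CPM (-1.81) and Actb, beta actin, at 1467 and 915 CPM (-0.68). Of 14 measured genes of one-carbon metabolism 1 was called. Bhmt, which remethylates homocysteine, stood at 813 and 3061 CPM (1.91), and the group's median was 0.04.

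The makeup of the mitochondrial UMIs also differed. The share of mt-Nd6 was 0.337% of mitochondrial UMIs in the fed and 0.0834% in the 4 h library, and that of mt-Atp8 was 2.87% and 0.844%. The share of mt-Atp6 was 13.3% and 19.3%, that of mt-Co2 8.60% and 12.3%, and that of mt-Co3 18.2% and 12.4%.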
